A study of Mus musculus with 28 samples.

Results

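The genes described here are 40 genes of microglia, complement and phagocytosis, listed by symbol and matched to the Ensembl mouse identifiers of 28 deposited count files (GRCm38). All 40 were among the 52636 genes of the files. P2ry13 and Gpr34, receptor genes of resting microglia, were at 0 in every library and were left out under the rule of choice. The remaining 38 passed the filter on low counts, which kept 19171 genes. RNA had been sequenced from the ventromedial prefrontal cortex (vmPFC), a cortical region involved in the control of emotion, of 28 individual female mice. In 4 groups of 7, mice carried either a control virus (LacZ) or one whose label reads Slit1 knockdown, and were taken without stress or once 3 days of the stress called sCVS had passed. The groups are called LacZ unstressed, LacZ stressed, knockdown-labelled unstressed and knockdown-labelled stressed, and libraries are numbered 1 to 7 within a group. All groups therefore carried a virus, the promoter of the viruses and the cells they reached are not given in the sources used here, strain and age were not in the labels, and the tissue was a needle punch of a coronal slice that holds every cell type of the region.

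Microglia are the resident macrophages of the brain. In the resting state they carry a homeostatic set of surface proteins and regulators (Tmem119, Cx3cr1, Csf1r, P2ry13, Siglech, Sall1, Olfml3, Fcrls), and in ageing, injury and disease they lower that set and turn on an activated, disease-associated set through the receptor TREM2 and its adaptor TYROBP (Spp1, Gpnmb, Lgals3, Cst7, Itgax, Clec7a, Lpl and the cathepsins). Complement tags synapses and debris for removal: C1q, made of the products of C1qa, C1qb and C1qc, starts the classical cascade, C4 and C3 are cleaved and deposited on the target, and receptors on microglia take it up. MERTK and AXL, with their bridging ligand GAS6, bind phosphatidylserine on dying cells.

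Many myeloid genes are controlled by PU.1, a factor whose binding sites hold the letters GAGGAA, so the bases before the start of some members are shown first. RefSeq (GRCm38.p6) gave a promoter entry for 30 members, and not for Tmem119, Csf1r, Gpr34, Itgb2, Cd14, Tyrobp, C1qa, C4b, Ctsb and Lpl. Over the 250 bases before the start, GAGGAA was found on either strand in 15 of the 30 (50%) and in 6986 of all 27025 genes with an entry (25.9%). The longer form GAGGAAGT, which contains it, was in 2 of the 30 (6.67%), C1qc and Spp1, and in 755 of all genes (2.79%). A match is a description of the letters and not evidence of a bound site. The last 100 bases before the start follow, 5′ to 3′ on the gene's strand, with any GAGGAA, or its reverse complement TTCCTC, in capitals. Shown are Aif1, Fcgr1 and Cd53, whose levels went with the lymphocyte gene Gzmb (r = 0.722, 0.776 and 0.761), Trem2 and Laptm5, whose levels went with the first principal component (r = 0.909 and 0.862), and Siglech, whose window holds no match and whose level varied little. The choice is one of examples and does not tie the letters to the pattern: Lgals3, Ly86, Fcer1g and C3ar1, which went with Gzmb (r = 0.892, 0.849, 0.792 and 0.773), and Ctsd, Gas6 and Olfml3, which went with the first principal component, had no match, and the steady gene Cd33 had one.
Aif1 (chr17:35176053-35176152, minus strand): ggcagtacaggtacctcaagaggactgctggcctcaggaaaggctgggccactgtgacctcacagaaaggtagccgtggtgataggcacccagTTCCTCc
Fcgr1 (chr3:96293970-96294069, minus strand): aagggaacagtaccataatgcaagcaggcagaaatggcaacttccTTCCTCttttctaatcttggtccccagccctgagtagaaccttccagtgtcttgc
Cd53 (chr3:106790150-106790249, minus strand): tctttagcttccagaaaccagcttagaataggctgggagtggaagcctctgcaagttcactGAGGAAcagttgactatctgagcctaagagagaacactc
Trem2 (chr17:48346301-48346400, plus strand): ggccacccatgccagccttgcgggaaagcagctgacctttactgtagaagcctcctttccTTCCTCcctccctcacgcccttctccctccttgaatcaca
Laptm5 (chr4:130913216-130913315, plus strand): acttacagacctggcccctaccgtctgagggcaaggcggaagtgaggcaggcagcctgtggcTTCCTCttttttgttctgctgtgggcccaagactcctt
Siglech (chr7:55768084-55768183, plus strand): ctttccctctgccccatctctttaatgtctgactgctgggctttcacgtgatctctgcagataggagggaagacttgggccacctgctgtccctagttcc
The first base of the match, as printed, lay 7 bases before the start in Aif1, 55 in Fcgr1, 39 in Cd53, 40 in Trem2 and 38 in Laptm5. Starts are those of RefSeq. In the Ensembl annotation used for the counts, Laptm5 begins at 130913125, so that its whole window lies inside the counted span, and the spans of Aif1 and Siglech begin within theirs.

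Total counts ran from 30647778 to 44281716 fragments per library. A lower Slit1 level in libraries labelled knockdown was not detected: its median was 16.9 CPM (a count divided by the scaled size of its library) in LacZ unstressed, 13.5 in LacZ stressed, 21.4 in knockdown-labelled unstressed and 13.03 in knockdown-labelled stressed libraries. The log2 fold change for the label was 0.09 ± 0.43 without stress and -0.12 ± 0.43 with stress (adjusted p = 1.00 for both by edgeR's quasi-likelihood test). The first principal component of log2 CPM over all genes, PC1, held 58.8% of the variance, and its score had r = 0.996 with the slope of a library's log2 CPM on the GC content of the genes. A total of 3 libraries stood apart in genes of other cells or regions and are named where they bear on a result. Summed over 7 markers, cytotoxic T and NK cell genes reached 1.40 CPM in LacZ stressed library 4 and 10.4 to 282.7 CPM in the other libraries. The 6 bone and osteoclast genes, of which Acp5 was at 0 throughout, summed to 1422.5 CPM in knockdown-labelled stressed library 2 and to 2.20 to 22.1 CPM elsewhere. Knockdown-labelled stressed library 7 had the highest level of the striatal gene Drd2, 17.5 CPM, followed by LacZ unstressed library 6 (10.7 CPM) and knockdown-labelled unstressed libraries 6 (10.3 CPM) and 2 (7.14 CPM), and 0.657 to 3.61 CPM in the others.

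The microglial identity of the signal was first examined with defining genes of the cell type. Aif1, Csf1r, Cx3cr1, Tmem119 and Siglech had counts in all 28 libraries, and P2ry13 was at 0. The homeostatic members summed to 105.5 to 376.7 CPM in LacZ unstressed, 118.5 to 379.1 in LacZ stressed, 140.6 to 357.1 in knockdown-labelled unstressed and 151.5 to 387.8 in knockdown-labelled stressed libraries. Genes of border macrophages and monocytes, which also express many of the members, were also present: their 10 markers summed to 77.9 to 438.0, 78.8 to 435.1, 114.7 to 468.7 and 149.96 to 550.3 CPM in the same order of groups. In bulk tissue, fewer cells of a type and less RNA per cell cannot be told apart. P2ry13 lies entirely inside Med12l and Gpr34 entirely inside Cask, and the deposited counts are of whole gene spans, so a 0 for these genes was not shown to be absence of their RNA. Cx3cr1 was affected in part, since its annotated span of 168264 bases was 2.68% exonic and 57.4% of it overlapped other genes. For Ctsd, 55.7% of the span overlapped Gm49369, for Spp1 21.1% overlapped Gm42793 and for Gas6 10.65% overlapped Tmem255b.

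Values of each gene are the lowest, median and highest CPM of the 7 libraries of LacZ unstressed, then LacZ stressed, then knockdown-labelled unstressed, then knockdown-labelled stressed mice. CPM values are not divided by gene length and are compared within a gene only. In each pairwise comparison of groups the ranges overlapped for all 38 tested members. Among all genes tested, ranges did not overlap for 0.00522% in both comparisons of the knockdown label and in the comparison of stress under the knockdown label, and for 0% in the comparison of stress under LacZ.

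Homeostatic genes split into some that varied widely between libraries of a group and some that were steady. Tmem119, a microglial surface protein, stood at 1.124, 3.64 and 25.6 CPM, then 1.37, 4.62 and 21.9, then 1.37, 6.14 and 17.8, then 1.42, 5.51 and 19.001. Csf1r, the receptor on which microglial survival depends, stood at 14.5, 41.7 and 185 CPM, then 15.7, 46.3 and 204, then 13.2, 69.2 and 161, then 26.8, 64.3 and 197. In every group both genes were lowest in a library of low PC1 score and highest in one of high score, and the fold between the lowest and highest of 28 libraries was 22.8 for Tmem119 and 15.5 for Csf1r. Cx3cr1, the fractalkine receptor, stood at 34.98, 59.2 and 75.3 CPM, then 40.5, 63.1 and 75.4, then 35.6, 67.7 and 95.1, then 55.7, 58.8 and 81.2. Sall1, a transcription factor of microglial identity, stood at 11.96, 13.4 and 16.2 CPM, then 9.33, 13.1 and 16.9, then 13.1, 14.3 and 21.4, then 11.04, 14.3 and 17.1. These were steady genes, with a fold of 2.72 and 2.30 between the extreme libraries, and so was Siglech, a lectin of resting microglia, at 2.72. Fcrls, an Fc receptor-like gene of microglia, stood at 1.81, 4.503 and 17.9 CPM, then 3.34, 10.02 and 24.4, then 5.69, 8.36 and 18.5, then 2.32, 8.49 and 13.4. Its highest value was in LacZ stressed library 4, where the activated genes Gpnmb, Lgals3 and Clec7a were at their lowest. Olfml3, a secreted protein of microglia, ran from 7.09 to 42.0 CPM over all libraries.

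The shared myeloid genes code for receptors, adaptors and lysosomal proteins that microglia have in common with other macrophages. Aif1, the calcium-binding protein IBA1, stood at 7.82, 20.2 and 34.8 CPM, then 6.66, 21.5 and 45.1, then 6.74, 21.4 and 45.7, then 17.8, 28.6 and 45.7. Cd68, a lysosomal protein of phagocytes, stood at 0.853, 5.49 and 13.1 CPM, then 1.34, 5.86 and 25.6, then 2.21, 6.53 and 18.9, then 2.06, 10.9 and 20.9. Its median was highest in knockdown-labelled stressed libraries, but the highest single value was in LacZ stressed library 2. Trem2, the lipid-sensing receptor, stood at 1.23, 3.88 and 19.4 CPM, then 2.04, 6.797 and 13.02, then 1.16, 8.46 and 19.4, then 2.42, 6.87 and 18.1. Tyrobp, the adaptor that signals for TREM2, stood at 1.604, 8.39 and 29.6 CPM, then 2.71, 8.44 and 52.3, then 2.32, 12.8 and 36.1, then 3.45, 14.1 and 45.3. Over all 28 libraries the receptor spread 16.8-fold and its adaptor 32.6-fold. Ly86, a partner of a Toll-like receptor homologue, stood at 68.3, 117 and 152 CPM, then 27.7, 129 and 159, then 66.95, 120.2 and 158, then 90.5, 135 and 189. Cd53, a tetraspanin of leukocytes, stood at 25.6, 51.5 and 118 CPM, then 15.1, 89.6 and 179, then 45.3, 72.4 and 119.8, then 37.3, 139 and 195. Both were lowest in LacZ stressed library 4, which set the low end of its group for Aif1 too. Cd33, a sialic acid-binding receptor, stood at 10.8, 12.8 and 17.7 CPM, then 10.6, 14.8 and 21.4, then 11.3, 16.8 and 20.4, then 11.7, 14.3 and 18.3. Cd14, a co-receptor for lipopolysaccharide, stood at 0.171, 1.31 and 2.29 CPM, then 0.632, 0.935 and 4.31, then 0.0527, 1.22 and 1.64, then 0.741, 1.501 and 2.32. Cd33 was among the steadiest members, with a 2.01-fold spread, whereas the low end of Cd14 rested on 1 fragment in knockdown-labelled unstressed library 7. Laptm5, Fcer1g, Fcgr1, Fcgr3 and Itgb2 spread 16.6, 9.75, 8.38, 6.78 and 21.3-fold.

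**Figure D1:**
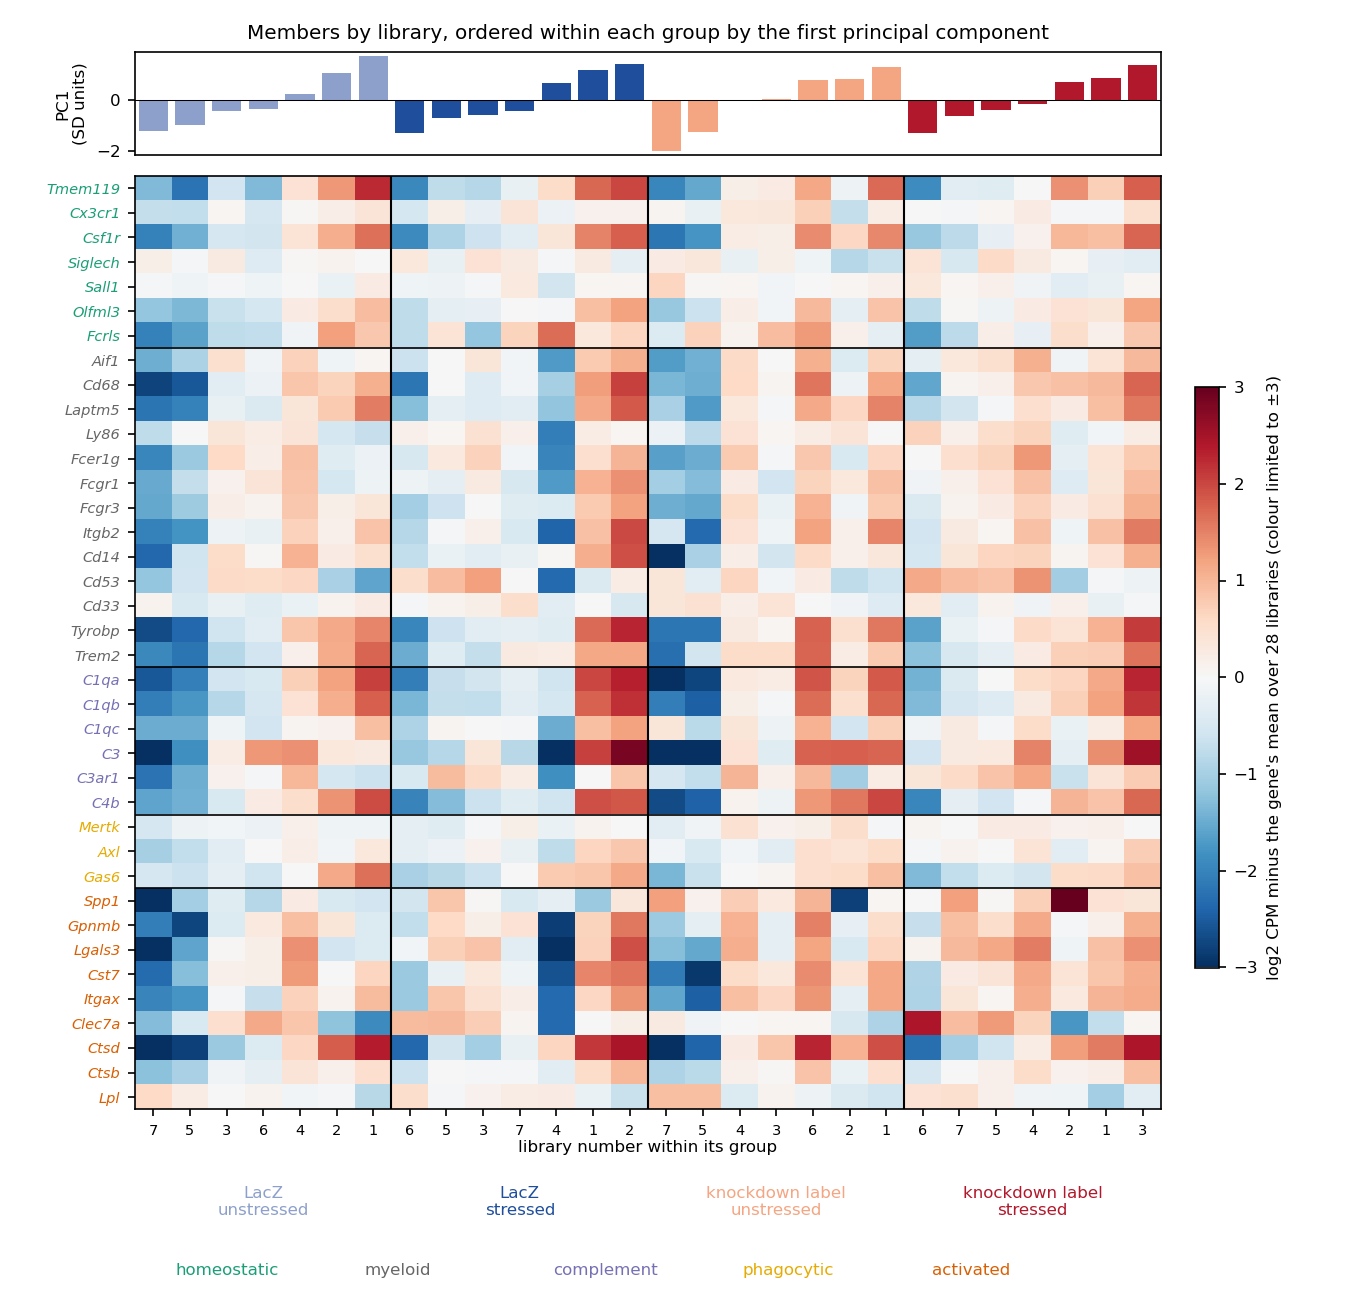
Log2 CPM of the 38 tested members minus each gene's mean over the 28 libraries (colour, limited to ±3), with genes in rows grouped by role and libraries in columns grouped by virus and stress and ordered by PC1 score (bars above, in SD units). Tmem119, Csf1r, Tyrobp, C1qa, C4b and Ctsd run from blue to red along PC1 within each group, Mertk, Sall1 and Cd33 stay pale, and the activated genes Gpnmb, Lgals3, Cst7, Itgax and Clec7a are dark blue in LacZ stressed library 4.

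Complement genes also spread widely, and 5 of the 6 followed PC1 across libraries, a share that was not set against that of all genes. C1qa stood at 3.82, 16.5 and 93.7 CPM, then 5.35, 15.6 and 114, then 2.11, 27.7 and 84.4, then 8.41, 33.4 and 110.5. C1qb stood at 7.41, 21.97 and 108 CPM, then 12.2, 21.7 and 143, then 5.74, 35.3 and 104, then 12.5, 37.6 and 138. C1qc stood at 13.8, 35.5 and 72.8 CPM, then 13.8, 39.3 and 89.6, then 22.3, 50.002 and 79.6, then 33.98, 45.7 and 88.97. The 3 chains of C1q did not spread alike, with a fold of 54.1 for C1qa, 24.96 for C1qb and 6.504 for C1qc between the extreme libraries. C3, the central component of the cascade, stood at 1.16, 29.5 and 63.2 CPM, then 1.88, 13.5 and 174, then 2.21, 32.5 and 84.6, then 16.4, 29.6 and 142. C3ar1, the receptor for the C3a fragment, stood at 5.94, 19.2 and 55.004 CPM, then 7.66, 32.2 and 53.5, then 13.5, 30.7 and 56.3, then 17.5, 41.4 and 62.1. C4b, the classical component that C1q activation leads to, stood at 14.5, 51.6 and 168 CPM, then 10.8, 28.7 and 165, then 6.69, 46.6 and 175, then 11.2, 41.9 and 144. C3 had the largest spread of all members (149.6-fold), from 1.16 CPM in LacZ unstressed library 7 to 173.5 CPM in LacZ stressed library 2.

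The receptors Mertk and Axl were steadier than their ligand. Mertk stood at 62.1, 80.8 and 98.3 CPM, then 68.5, 84.6 and 101, then 71.3, 96.1 and 128, then 88.6, 96.2 and 105. Axl stood at 21.2, 40.3 and 52.98 CPM, then 25.2, 37.8 and 75.2, then 31.2, 40.5 and 62.5, then 33.96, 45.1 and 71.2. Gas6, the ligand of both, stood at 7.69, 10.04 and 37.8 CPM, then 6.09, 11.9 and 26.4, then 4.64, 12.7 and 22.4, then 4.77, 9.02 and 22.03. Mertk spread 2.06-fold over the 28 libraries, Axl 3.54-fold and Gas6 8.15-fold. These are counts of whole spans, of which exons made up 4.17% for Mertk, 16.01% for Axl and 8.75% for Gas6. The Mertk median was higher in both knockdown-labelled groups than in both LacZ groups, and the lowest knockdown-labelled stressed value (88.6 CPM) lay above the medians of both LacZ groups.

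Activated genes were all detected, in tissue that holds every cell type of the region, so their detection does not show activated microglia. Spp1, the secreted phosphoprotein osteopontin, stood at 2.32, 13.2 and 23.2 CPM, then 9.13, 15.97 and 34.97, then 2.77, 23.98 and 46.2, then 19.8, 26.6 and 290.3. Its 290.3 CPM in knockdown-labelled stressed library 2 were in the library with the bone genes, where Ibsp reached 218.1 CPM, and the part of these cells in that value was not tested. Lgals3, the lectin galectin 3, stood at 1.33, 10.7 and 37.2 CPM, then 0.498, 23.4 and 55.01, then 4.95, 11.8 and 32.8, then 13.2, 28.3 and 41.9. Gpnmb, a glycoprotein of lipid-laden phagocytes, stood at 2.74, 14.1 and 35.1 CPM, then 2.63, 25.3 and 56.5, then 8.85, 15.8 and 53.7, then 11.6, 27.2 and 41.3. Lgals3 and Gpnmb had their highest values in LacZ stressed library 2 and their lowest in LacZ stressed library 4. Cst7, an inhibitor of cathepsins, stood at 2.73, 15.4 and 33.3 CPM, then 2.22, 12.5 and 42.2, then 1.82, 18.4 and 36.98, then 7.35, 18.3 and 30.4. Itgax, the integrin CD11c, stood at 3.24, 12.3 and 25.02 CPM, then 2.51, 17.7 and 32.3, then 2.32, 19.7 and 32.4, then 6.77, 16.6 and 27.7. Clec7a, the beta-glucan receptor dectin 1, stood at 6.02, 16.7 and 50.6 CPM, then 4.49, 26.04 and 45.3, then 12.05, 23.2 and 27.6, then 6.82, 36.5 and 123. Clec7a was low where Tmem119 was high in LacZ unstressed library 1 (6.02 against 25.6 CPM), and its highest value of 123.3 CPM was in knockdown-labelled stressed library 6, which had 1.42 CPM of Tmem119, the lowest of its group. These genes were not opposed in every library. In LacZ stressed library 2, Tmem119 was high at 21.9 CPM (median of the 28 libraries 5.19), and Clec7a, at 26.04 CPM, was near its median of 23.8. Other activated genes, Ctsd and Itgax, had the highest values of their group in LacZ unstressed library 1 (87.7 and 25.02 CPM). Ctsd, a lysosomal protease, stood at 2.05, 12.8 and 87.7 CPM, then 3.27, 14.6 and 92.9, then 0.948, 30.2 and 83.5, then 3.51, 19.96 and 91.8. Lpl, lipoprotein lipase, stood at 7.32, 12.8 and 19.8 CPM, then 8.21, 14.2 and 18.8, then 8.58, 11.7 and 24.5, then 6.38, 12.1 and 18.2. Ctsd spread 97.9-fold, and Lpl only 3.84-fold. Ctsb, another lysosomal protease, ran from 138.8 to 652.6 CPM.

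**Figure D2:**
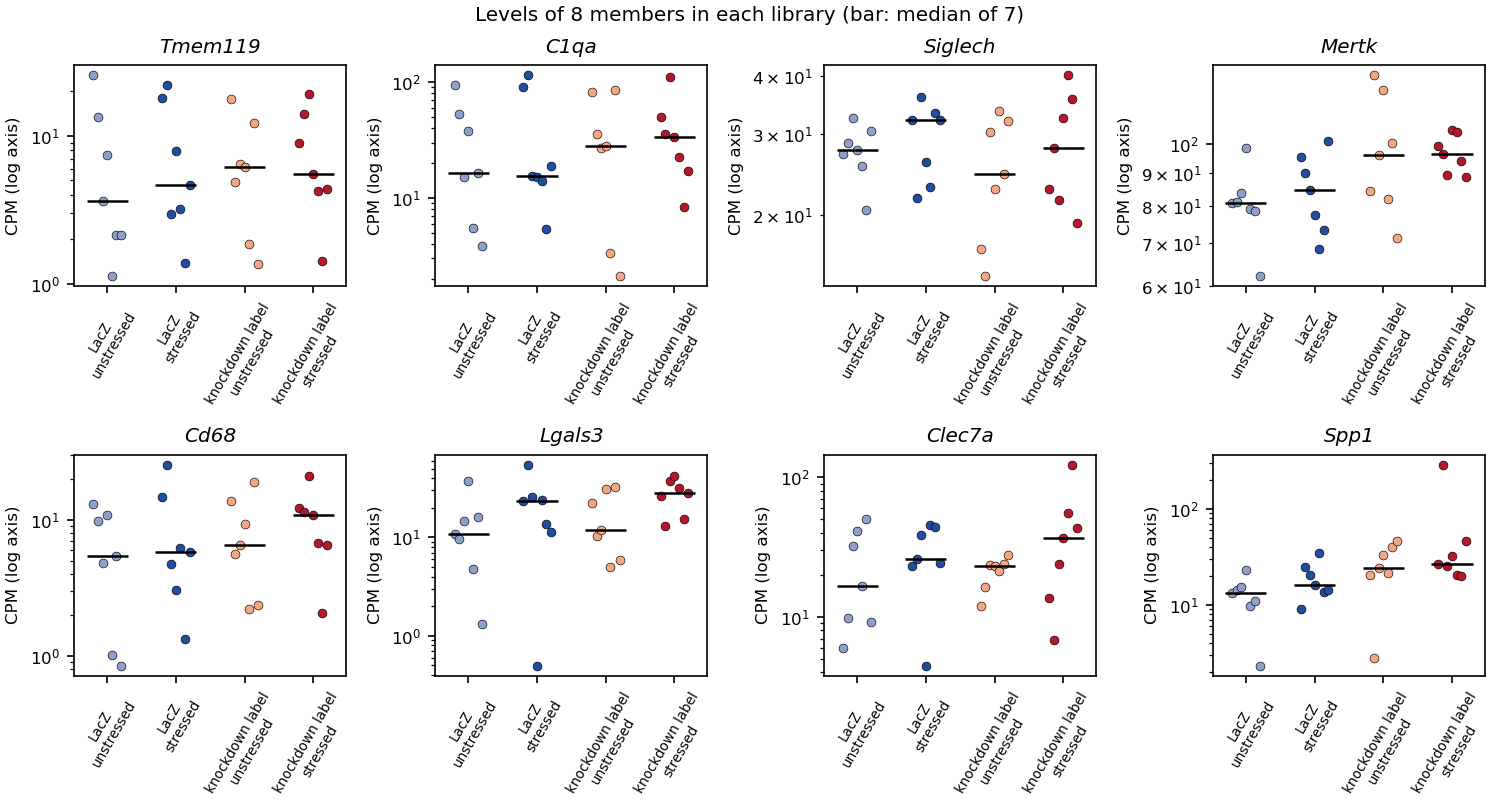
CPM on a log axis of 8 members in each of the 28 libraries (points) by group, with the median of 7 as a bar. The groups overlap for every gene shown, and points apart from their group include Spp1 at 290.3 CPM in knockdown-labelled stressed library 2, at 2.77 CPM in knockdown-labelled unstressed library 2 and at 2.32 CPM in LacZ unstressed library 7, and Lgals3 at 0.498 CPM and Clec7a at 4.49 CPM in LacZ stressed library 4.

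The members as a whole were more variable than most genes. The SD of log2 CPM over 28 libraries had a median of 0.99 for the 38 members and 0.55 for all 19171 genes. The SD of 31 members lay above the median of all genes, and that of 17 above their 90th percentile. Extreme values gathered in few libraries. LacZ stressed library 2 held the highest value of 19 members, while LacZ stressed library 4 held the lowest of 11, LacZ unstressed library 7 of 10 and knockdown-labelled unstressed library 7 of 7.

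Homeostatic and activated genes were then set side by side, as the mean log2 CPM of the 7 homeostatic and of the 9 activated members relative to their means over all libraries. The homeostatic level was -0.19 ± 0.77 (SD, n = 7) in LacZ unstressed, 0.06 ± 0.59 in LacZ stressed, 0.05 ± 0.51 in knockdown-labelled unstressed and 0.08 ± 0.49 in knockdown-labelled stressed libraries. The activated level was -0.40 ± 0.93, -0.01 ± 0.87, -0.02 ± 0.79 and 0.43 ± 0.37 in the same order. In no group was one level high and the other low, and the ranges of all 4 groups overlapped for both. The levels had the same sign in the other 23 libraries, low in LacZ unstressed library 7 (-1.02 homeostatic and -1.97 activated) and high in LacZ stressed library 2 (0.79 and 1.09). The levels had opposite signs in 5 libraries. LacZ stressed library 4, with 0.25 homeostatic and -1.62 activated, had the widest gap of all 28, and the others were LacZ stressed libraries 3 (-0.40 and 0.19), 5 (-0.25 and 0.35) and 7 (0.14 and -0.03) and knockdown-labelled stressed library 7 (-0.33 and 0.45).

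Relations across the 28 libraries were computed for Tmem119, C1qa, Cd68, Clec7a and Mertk in a family of 20, with two-sided permutation tests of 100000 resamples and Benjamini-Hochberg adjustment. Tmem119 and C1qa followed PC1 (for Tmem119, r = 0.949, rho = 0.947; for C1qa, r = 0.940, rho = 0.940), each with p = 1e-05, the smallest these permutations can give, and adjusted p = 3.33e-05. Cd68 did so with r = 0.818 and rho = 0.857 (permutation p = 1e-05, adjusted p = 3.33e-05). Clec7a went the other way, with r = -0.51 and rho = -0.49 (permutation p = 0.00593, adjusted p = 0.0108). For Mertk, r was 0.373 and rho 0.355 (permutation p = 0.0497, adjusted p = 0.0662). Without the 2 libraries farthest from the median PC1 score, r was 0.943 for Tmem119, 0.925 for C1qa, 0.823 for Cd68, -0.46 for Clec7a and 0.374 for Mertk. Titles number the samples, and within 15 libraries of numbers up to 20 and 13 above 20, r was 0.969 and 0.873 for Tmem119, 0.903 and 0.941 for C1qa, 0.781 and 0.782 for Cd68, -0.46 and -0.21 for Clec7a, and -0.0029 and 0.723 for Mertk. The mitochondrial share of counts had r = -0.72 with Tmem119 (rho = -0.79, permutation p = 2e-05, adjusted p = 5.71e-05) and r = -0.83 with C1qa (rho = -0.84, permutation p = 1e-05, adjusted p = 3.33e-05). With group means and PC1 removed, these were 0.577 for Tmem119, a change of direction, and -0.14 for C1qa.

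A second axis was Gzmb, the granzyme B gene of cytotoxic lymphocytes. Clec7a followed Gzmb with r = 0.608 and rho = 0.587 (permutation p = 4.7e-04, adjusted p = 0.00104), 0.556 without the 2 farthest libraries, and 0.733 and 0.543 within the lower and higher title numbers. Cd68 had r = 0.432 and rho = 0.417 (permutation p = 0.0206, adjusted p = 0.0317), 0.421 without the 2 farthest libraries, and 0.485 and 0.511 within the lower and higher title numbers. Tmem119 had r = 0.088 and rho = 0.106 (permutation p = 0.667, adjusted p = 0.667). Tmem119 itself had r = 0.605 with Cx3cr1 (rho = 0.586, permutation p = 6.4e-04, adjusted p = 0.00128) and r = -0.48 with Clec7a (rho = -0.48, permutation p = 0.00928, adjusted p = 0.0155). Within the lower and higher title numbers the first was 0.741 and 0.550, and the second -0.35 and -0.28. With group means and PC1 removed, the first was 0.690 and the second -0.11. Tmem119 also went with C1qa (r = 0.924, rho = 0.921) and Cd68 (r = 0.876, rho = 0.899), each with permutation p = 1e-05 and adjusted p = 3.33e-05. With group means and PC1 removed, these were 0.241 for C1qa and 0.501 for Cd68. For Mertk, r with Tmem119 was 0.332 (rho = 0.362, permutation p = 0.0842, adjusted p = 0.105). In all, 13 of the 20 relations passed. After removal of group means 15 did, with Mertk against PC1 among them (r = 0.436, permutation test, adjusted p = 0.0295). Mertk against the mitochondrial share was another (r = -0.47, permutation test, adjusted p = 0.017). The share of all genes with such relations was not computed, so these counts do not set the members apart.

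**Figure D3:**
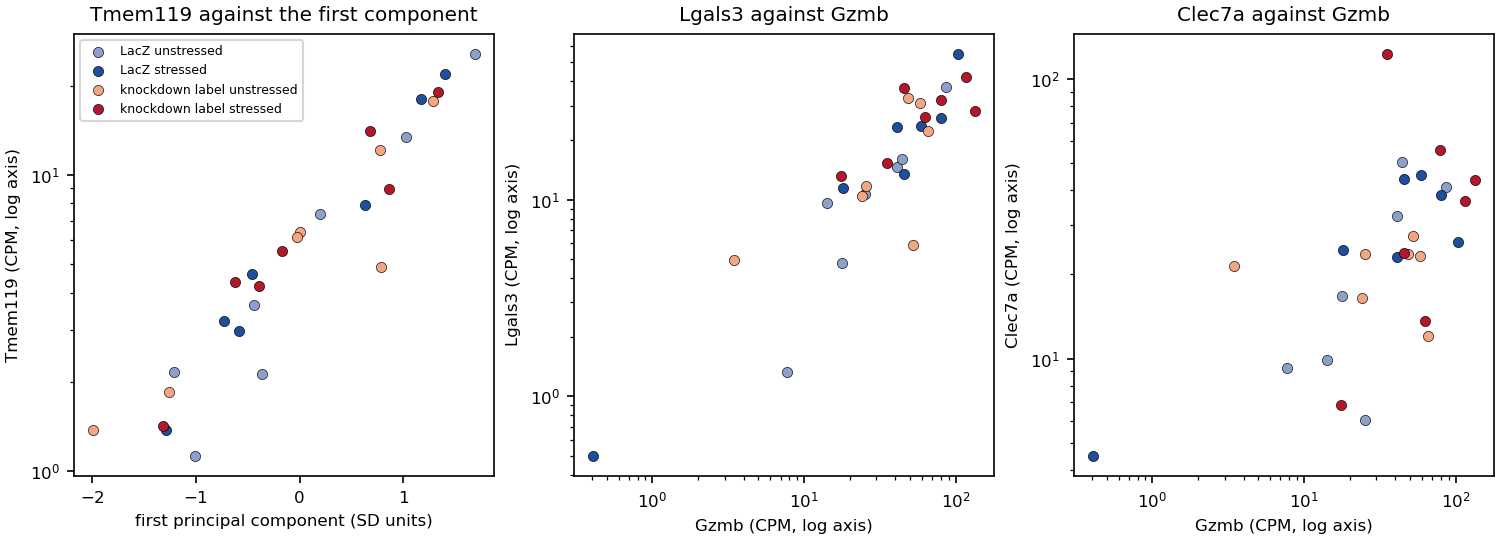
CPM of a member in each of the 28 libraries (points, coloured by group, log axis) against PC1 score in SD units for Tmem119 and against Gzmb CPM on a log axis for Lgals3 and Clec7a. Tmem119 increases along PC1 (r = 0.949), Lgals3 increases with Gzmb (r = 0.892), and LacZ stressed library 4 is the point at 0.408 CPM of Gzmb.

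The same 2 relations were then computed for all 38 members, a family of 76 that was added after the data had been seen. With PC1, 27 members passed at adjusted p under 0.05 (permutation test) with a positive r and 4 with a negative r. The positive ones included Csf1r (0.976), Ctsd (0.968), Gas6 (0.958), C4b (0.956), C1qb (0.944), Tyrobp (0.919), Trem2 (0.909) and Olfml3 (0.893). Negative values belonged to Lpl (-0.85), Clec7a (-0.51), Siglech (-0.47) and Cd53 (-0.45). Members are part of the genes from which PC1 was made, and PC1 held 58.8% of the variance of all genes. The share of all genes that would pass with PC1 or with Gzmb was not computed. Counts of passing members, here and for Gzmb below, therefore do not set the members apart from other genes. Over the 38 members, r with PC1 had r = 0.799 with the GC content of the gene, a description across genes that share libraries. Gzmb passed with a positive r for 19 members and with a negative r for 0. By role these were 0 of 7 homeostatic, 9 of 13 shared myeloid, 3 of 6 complement, 1 of 3 receptor and ligand genes for dying cells and 6 of 9 activated genes. The homeostatic gene Sall1 had r = 0.400 (permutation test, adjusted p = 0.0672). It passed with group means removed (r = 0.434, permutation test, adjusted p = 0.0382), and had r = 0.106 without the 2 farthest libraries. Differences between roles were not tested. The highest r with Gzmb belonged to Lgals3 (0.892), Ly86 (0.849), Fcer1g (0.792), Fcgr1 (0.776), C3ar1 (0.773), Cd53 (0.761) and Itgb2 (0.745). Without the 2 libraries farthest from the median Gzmb level, one of them LacZ stressed library 4, r was 0.828 for Lgals3 and 0.604 for Ly86. The part of GC content, mitochondrial share and lymphocyte or macrophage content in the levels of the members was not tested.

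**Figure D4:**
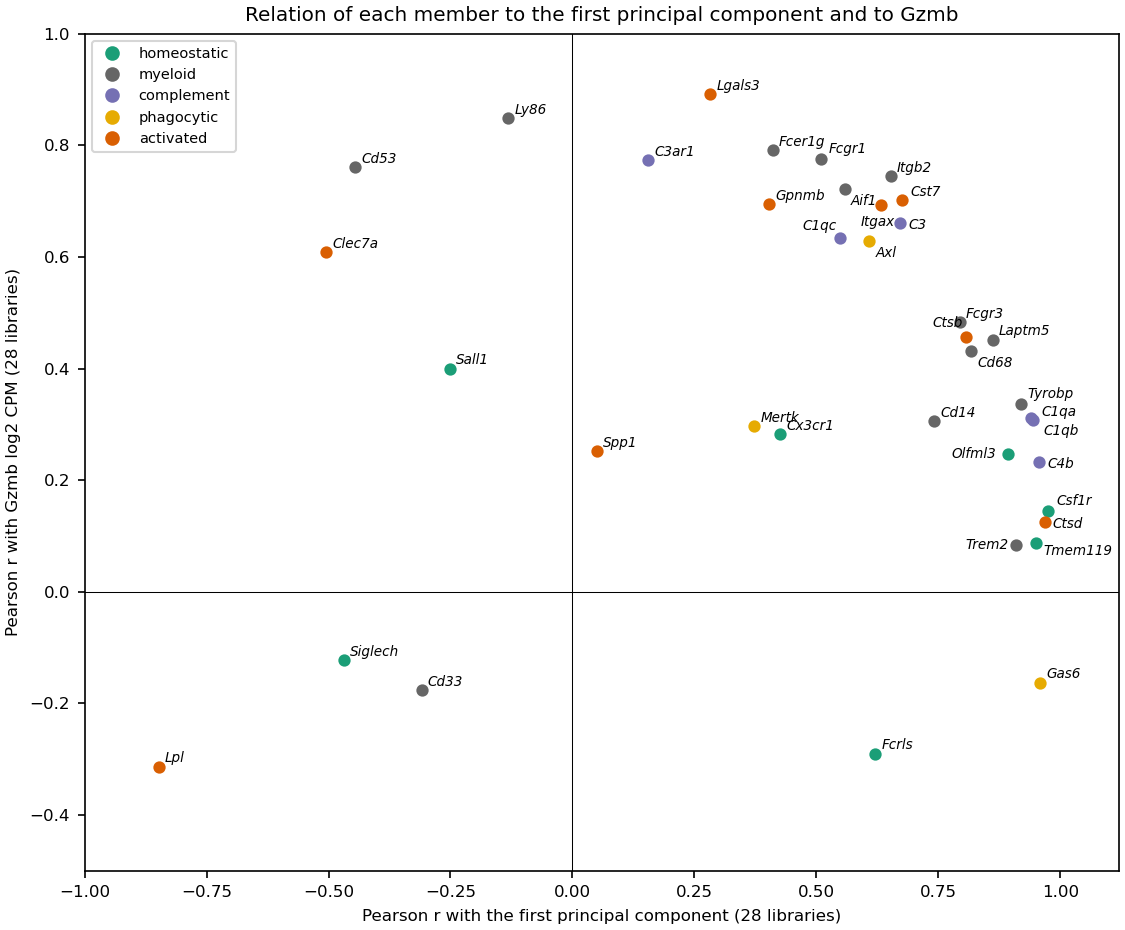
Pearson r of each of the 38 tested members with PC1 (x axis) and with Gzmb log2 CPM (y axis) over 28 libraries, coloured by role. Csf1r, Ctsd, Tmem119 and Trem2 lie at the right with r of 0.145 or less for Gzmb, Lgals3, Ly86 and C3ar1 at the top with r under 0.3 for PC1, and Lpl at the far left.

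The effect of the virus labelled Slit1 knockdown was tested within each stress state with edgeR's quasi-likelihood test, adjusted over all 19171 genes. Log2 fold changes are given with their SE. The comparisons share libraries, so they are not independent of each other. Without stress, 0 of 38 members passed at adjusted p under 0.05, with a background of 0% of all genes, and 1 member had an unadjusted p under 0.05, with a background of 0.897%. This was Mertk, at 0.28 ± 0.12 (adjusted p = 1.00), higher than the LacZ mean in 6 of 7 libraries. Spp1 followed at 1.08 ± 0.58, Cd33 at 0.25 ± 0.16, Cx3cr1 at 0.28 ± 0.19 and Sall1 at 0.17 ± 0.14 (adjusted p = 1.00 for each by edgeR). Of the members, 33 were above 0 with a median of 0.25, against 47.1% above 0 and a median of -0.01 over all genes. Without knockdown-labelled unstressed library 6, 22 were above 0 and the median was 0.04. Border macrophage and monocyte markers had 8 of 10 above 0 (median 0.36) and cytotoxic T and NK cell markers 5 of 7 (median 0.60).

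Under stress, 0 members passed, with a background of 0%, and 1 had an unadjusted p under 0.05, with a background of 0.824%. Spp1 had 1.79 ± 0.59 (adjusted p = 1.00 by edgeR) and was higher than the mean of LacZ in 7 of 7 libraries, but the value was 0.58 without knockdown-labelled stressed library 2, where the bone genes were high. Mertk had 0.20 ± 0.12, also higher than the mean of LacZ in 7 of 7 libraries, Clec7a 0.56 ± 0.52, Ly86 0.29 ± 0.27 and Fcrls -0.47 ± 0.47 (adjusted p = 1.00 for each). Members above 0 numbered 28 (median 0.10), against 42.3% of all genes (median -0.03), and 16 without LacZ stressed library 4 or without knockdown-labelled stressed library 3. The same marker lists had 8 of 10 (median 0.29) and 7 of 7 (median 0.28) above 0.

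Over both stress states, 0 members passed, with a background of 0%, and 2 had an unadjusted p under 0.05, with a background of 1.52%. Spp1 had 1.44 ± 0.41 (95% interval 0.58 to 2.29), higher than the mean of LacZ in 13 of 14 libraries, and 0.83 without knockdown-labelled stressed library 2. Mertk had 0.24 ± 0.09 (95% interval 0.06 to 0.42), above the LacZ mean in 13 of 14 libraries. Adjusted p was 1.00 by edgeR for both, and for Cx3cr1 (0.19 ± 0.14), C3ar1 (0.38 ± 0.30) and Sall1 (0.12 ± 0.10). By role, 5 of 7 homeostatic, 12 of 13 shared myeloid, 6 of 6 complement, 2 of 3 receptor and ligand and 9 of 9 activated genes were above 0, with medians of 0.12, 0.21, 0.21, 0.18 and 0.20, none past the test. In all, 34 of 38 members were above 0 (median 0.19), against 44.1% of all genes (median -0.02), and 27 (median 0.10) without knockdown-labelled stressed library 3. Of the markers of border macrophages and monocytes, 10 of 10 were above 0 (median 0.25), and of those of cytotoxic T and NK cells 7 of 7 (median 0.39). For well-spread genes the interval was wide: that of C1qa ran from -1.02 to 1.25 and that of Tmem119 from -1.11 to 0.92.

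**Figure D5:**
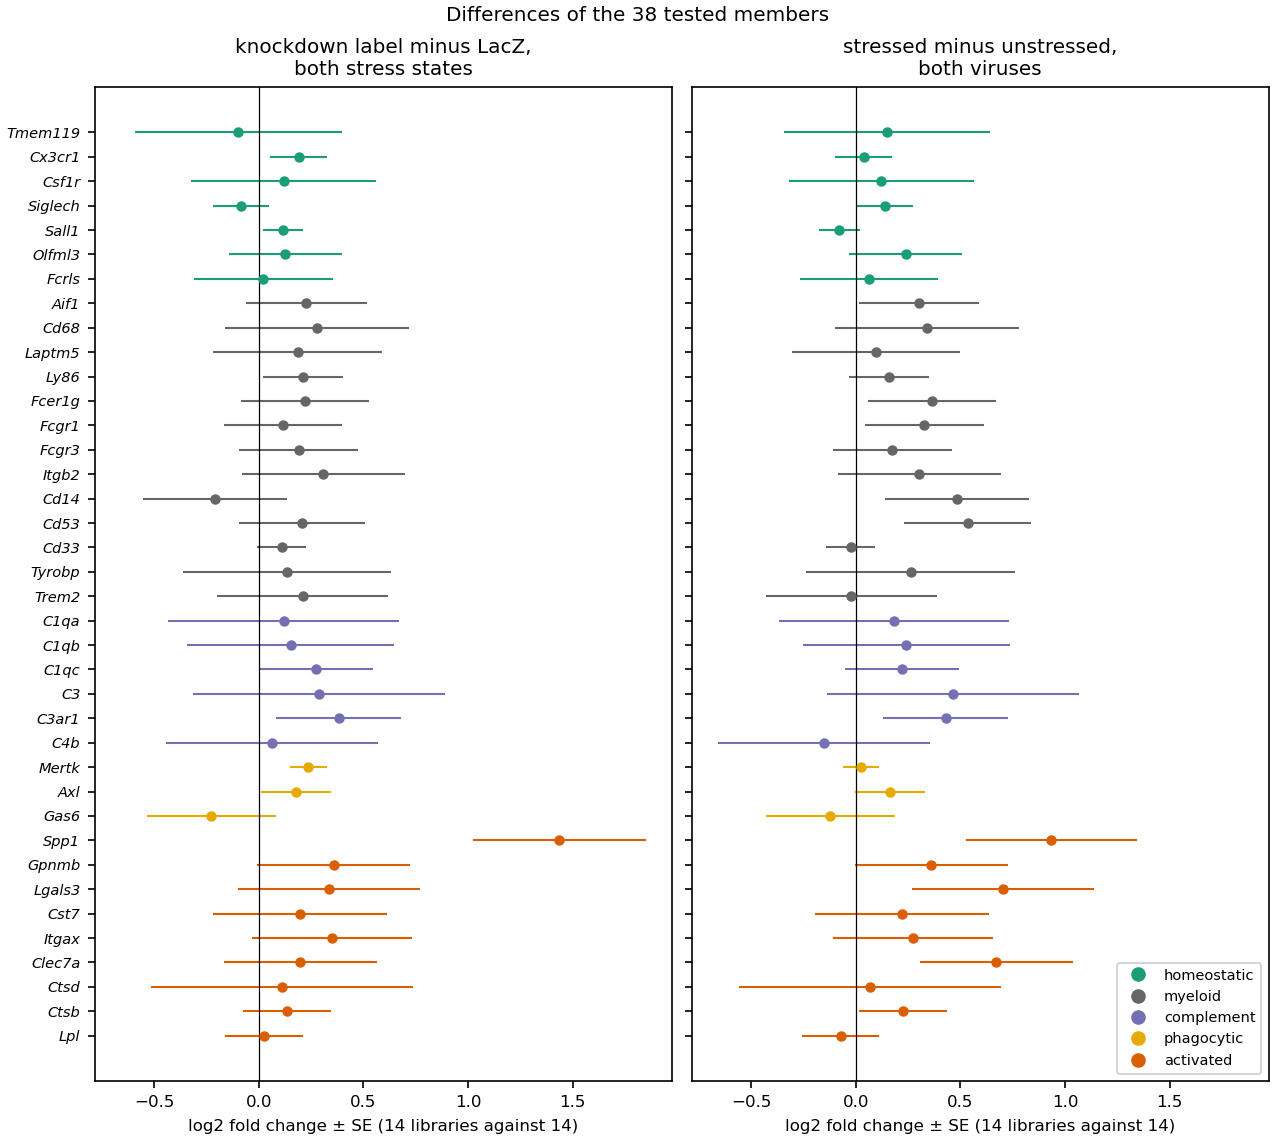
Log2 fold change with its SE (bars) of the 38 tested members, coloured by role, for knockdown-labelled against LacZ libraries over both stress states (left) and stressed against unstressed libraries over both viruses (right). Spp1 has the largest value in both panels, 1.44 and 0.94, and no member passed at adjusted p under 0.05.

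Stress was compared in the same way. Under LacZ, 0 members passed, with a background of 0%, and 0 had an unadjusted p under 0.05, with a background of 0.402%. The smallest p belonged to Fcrls (0.56 ± 0.47), Axl (0.28 ± 0.24), C3ar1 (0.49 ± 0.42), Lgals3 (0.70 ± 0.62) and Gpnmb (0.58 ± 0.52), each with adjusted p = 1.00 by edgeR. Of the members, 35 were above 0 (median 0.27), against 45.5% of all genes (median -0.01). This count was 21 and the median 0.06 without LacZ stressed library 2, the library with the highest value of 19 members, and 18 with limma's quality weights. Markers of border macrophages and monocytes were above 0 in 10 of 10 (median 0.41) and those of cytotoxic T and NK cells in 7 of 7 (median 0.55).

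Under the knockdown label, 0 members passed, with a background of 0%, and 1 had an unadjusted p under 0.05, with a background of 1.79%. This was Spp1 at 1.29 ± 0.58, which was 0.08 without knockdown-labelled stressed library 2. Clec7a had 1.03 ± 0.52, Cd53 0.63 ± 0.43, Cd14 0.62 ± 0.49 and Lgals3 0.70 ± 0.62, all with adjusted p = 1.00 by edgeR. Members above 0 numbered 28 (median 0.15), against 47.5% of all genes (median -0.01), 18 without knockdown-labelled unstressed library 5 and 17 without knockdown-labelled stressed library 3. The marker lists had 9 of 10 (median 0.26) and 6 of 7 (median 0.19) above 0.

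Averaged over both viruses, 0 members passed, with a background of 0%, and 1 had an unadjusted p under 0.05, with a background of 2.21%. Spp1 had 0.94 ± 0.41, above the unstressed mean in 11 of 14 libraries, and 0.33 without knockdown-labelled stressed library 2. Lgals3 had 0.70 ± 0.44 and was above the unstressed mean in 13 of 14 libraries, and Clec7a had 0.67 ± 0.37, Cd53 0.54 ± 0.30 and C3ar1 0.43 ± 0.30 (adjusted p = 1.00 by edgeR for all 5). The members above 0 numbered 32 (median 0.22), against 46.3% of all genes (median -0.01), and 26 (median 0.07) without LacZ stressed library 2. Over the alternative fits this count ran from 22 to 33 and the median from 0.03 to 0.30. Border macrophage and monocyte markers were above 0 in 10 of 10 (median 0.52) and cytotoxic T and NK cell markers in 7 of 7 (median 0.52), and their part in the members' values was not tested. Homeostatic genes had 6 of 7 above 0 and a median of 0.12, and activated genes 8 of 9 and 0.27. Without LacZ stressed library 4, which had the lowest Lgals3, Clec7a and Gzmb, 4 members had an unadjusted p under 0.05. All genes with such a p rose there too, from 424 to 728. With LacZ stressed library 5 left out, 0 members had one, and over all single libraries left out the genes ran from 287 to 728. Without the 3 libraries that stood apart, 5 members had an unadjusted p under 0.05, with 1132 of all genes, a background of 5.82%.

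The interaction asked whether the effect of stress differed between the viruses. Here 0 members passed, with a background of 0%, and 0 had an unadjusted p under 0.05, with a background of 0.355%. Fcrls had -0.98 ± 0.66, Cd33 -0.28 ± 0.23, Clec7a 0.72 ± 0.73, Spp1 0.71 ± 0.81 and Axl -0.23 ± 0.34 (adjusted p = 1.00 for each by edgeR). Spp1 was -0.50 without knockdown-labelled stressed library 2, a change of direction. Members above 0 numbered 12 (median -0.12), against 48.6% of all genes (median -0.01). Border macrophage and monocyte markers had 4 of 10 above 0 (median -0.11) and cytotoxic T and NK cell markers 3 of 7 (median -0.36). The members' direction rested on single libraries, since 28 members were above 0 without LacZ stressed library 2, 24 without knockdown-labelled unstressed library 6, 23 without LacZ stressed library 1, 21 without knockdown-labelled unstressed library 1 and 20 without LacZ unstressed library 5 or 7, and 7 without knockdown-labelled unstressed library 5. In the 7 comparisons, DESeq2 and limma also called 0 members. Values follow the order knockdown label without stress and with stress, stress under LacZ and under the knockdown label, and the interaction. Last come the knockdown label over both stress states and stress over both viruses. Members at an unadjusted p under 0.05 by DESeq2 numbered 1, 1, 0, 2, 0, 2 and 1. The shares of all genes at such a p by DESeq2 were 1.32, 0.913, 0.642, 2.47, 0.381, 1.95 and 3.16%. By limma, the members numbered 7, 2, 1, 0, 2, 9 and 0. The shares of all genes by limma were 3.62, 4.54, 3.51, 4.88, 3, 6.31 and 6.56%. By edgeR with PC1 as a covariate, members at such a p numbered 4, 1, 2, 1, 1, 4 and 2. The shares of all genes in that fit were 5.35, 2.38, 1.87, 8.52, 0.84, 7.79 and 10.5%. Whether the members exceeded these shares was not tested.

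Other genes of these pathways were listed beside the members. Of 20 further complement genes 18 were tested, of 18 further genes of microglial identity and growth 15, and of 22 further engulfment genes 22, and 0 of each passed in any of the 7 comparisons by edgeR. At an unadjusted p under 0.05, the knockdown label over both stress states had 1 of the 18 complement genes, against 1.52% of all genes: C6, a component of the membrane attack complex, at 0.93 ± 0.30 (adjusted p = 1.00 by edgeR). For the knockdown label with stress 2 of the 18 complement genes had such a p, against 0.824% of all genes, among them C6 at 1.10 ± 0.41. Without stress 1 of the 15 identity genes did, against 0.897% of all genes: Hpgds, a prostaglandin synthase gene of microglia, at 0.44 ± 0.19 (adjusted p = 1.00 for each by edgeR). For stress over both viruses 1 of the 18 had one, against 2.21% of all genes, C6 at 0.66 ± 0.30. The medians of the 3 lists were 0.12, 0.22 and 0.20 for the knockdown label over both stress states and 0.17, 0.20 and 0.12 for stress over both viruses, beside -0.02 and -0.01 over all genes. The further complement genes differed from the members in other comparisons: 9 of 18 were above 0 (median 0.03) for the knockdown label without stress, where 33 of 38 members were, and 13 of 18 (median 0.06) in the interaction, where 12 of 38 members were. These differences were not tested.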

How the data were processed

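Whole-tissue RNA was sequenced from 28 individual mice in 4 groups of 7, taken from the virus and treatment labels. The authors deposited 1 file of raw counts per library, in which featureCounts 1.6.2 had assigned fragments to whole Ensembl 90 gene spans (GRCm38), without a strand option, per the file headers. The names of the alignments there include a duplicate removal step. HISAT2 and DESeq2 are also named in the submitters' processing notes, and the library kit was stranded per the labels' protocols. Whole-span counting includes introns, and without strand, reads of overlapping genes cannot be told apart.

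Here, counts were scaled by TMM and filtered with filterByExpr, which kept 19171 genes, and all 28 libraries were fitted with 1 coefficient per group by edgeR 4.0.16 in R 4.3.3 (quasi-likelihood test, Benjamini-Hochberg over all genes, threshold 0.05, common biological coefficient of variation 0.467). Intervals at 95% use 24 residual degrees of freedom. Log2 CPM for relations used a prior count of 2. The code was tested on simulated data. No libraries were duplicates (smallest chi-square per gene between 2 libraries 8.54). Alternatives were DESeq2 1.42.0, limma 3.58.1 with quality weights, RLE size factors, other filters, covariates (PC1, 2 surrogate variables from sva 3.50.0, title number), fits of only the groups compared, each library left out, and 3 libraries left out together. The members and lists were chosen with earlier results of these data known. Values by library are given for the main members of each role, and in each comparison the 5 members of smallest p are named. Results for some genes of the accompanying lists are not reported here.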

Additional observations from a re-analysis of the deposited data

Results flagged for a closer look

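Each of 38 members was checked in the 4 groups of 7 for a library standing far from the other 6, by Dixon's test, and 8 of 152 sets of 7 values had one. Chance alone flags about 1 in 20. In LacZ stressed library 4, which had the lowest cytotoxic lymphocyte genes, Ly86 was at 27.7 CPM (others 120.2 to 159.5), Lgals3 at 0.498 CPM (others 11.5 to 55.0) and Clec7a at 4.49 CPM (others 23.1 to 45.3). In knockdown-labelled stressed library 2, which had the bone genes, Spp1 was at 290.3 CPM (others 19.8 to 45.9). Spp1 was low at 2.77 CPM in knockdown-labelled unstressed library 2 (others 20.5 to 46.2) and at 2.32 CPM in LacZ unstressed library 7 (others 9.76 to 23.2). In knockdown-labelled unstressed library 7, which had the lowest PC1 score and the highest mitochondrial share (14.2%), Sall1 was high at 21.4 CPM (others 13.1 to 15.3) and Cd14 low at 0.0527 CPM, from 1 fragment (others 0.534 to 1.64).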

How the results depend on the processing

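In all 7 comparisons the count of genes and of members past adjusted p under 0.05 was 0 under every alternative and with each of the 28 libraries left out. Genes at an unadjusted p under 0.05 moved more: 172 without stress for the knockdown label (80 to 1278 over the alternatives), 158 with stress (91 to 870), 77 for stress under LacZ (31 to 673), 343 under the knockdown label (237 to 1634), 68 for the interaction (20 to 668), 291 for the knockdown label over both stress states (215 to 1494) and 424 for stress over both viruses (327 to 2015). Spp1 changed direction for stress under the knockdown label without the 3 libraries that stood apart (-0.11), and in the interaction without them (-0.73) and by limma (-0.17), while with each library left out it ran from -0.50 to 0.93. Axl in the interaction was 0.0402 by limma. The cause of these changes was not tested, except that leaving out the library with 290.3 CPM of Spp1 gave the -0.50. Of the members, 14 were above 0 for stress under the knockdown label with title number as a covariate and 16 with surrogate variables, beside 28, and 6 in the interaction with title number, beside 12. Title numbers above 20 were spread unevenly over the groups. They were 27 and 28 in LacZ unstressed and 35, 36, 37, 38 and 40 in knockdown-labelled unstressed libraries. They were 22, 23 and 25 in LacZ stressed and 31, 33 and 34 in knockdown-labelled stressed libraries. No paired analysis was possible because title numbers are not shared between groups and replicate numbers follow accession order. The lowest Cd14 value rested on 1 fragment, in knockdown-labelled unstressed library 7. That library had the fewest total counts (30647778) and the lowest PC1 score. LacZ unstressed library 3, with 31084984 total counts, had 48 fragments of Cd14. The part of depth in the low values was not tested.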

Other observations

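After group means and PC1 had been removed from log2 CPM over the 28 libraries, r with Gzmb was 0.962 for Itgb2, 0.923 for Lgals3, 0.918 for Cst7, 0.880 for Fcgr1, 0.869 for Cd53, 0.869 for Itgax, 0.858 for Laptm5, 0.852 for C3, 0.845 for C1qb and 0.811 for C1qa. Of the homeostatic genes, Olfml3 had 0.486, Csf1r 0.483, Sall1 0.456, Cx3cr1 0.268 and Tmem119 0.1403. Siglech had -0.15 and Fcrls -0.43. The value was 0.079 for Trem2, -0.65 for Gas6 and -0.53 for Lpl. These values are descriptions with no test, computed after the data had been seen.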
